A study of Mus musculus with 3 samples.

Results

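These data follow 10 genes of the Notch pathway in 3 kinds of cultured mouse heart cell. They are the receptors Notch1, Notch2, Notch3 and Notch4, the ligands Jag1 and Dll1, and the targets Hes1, Hey1, Hey2 and Heyl. Members were taken by gene symbol from the expression table, which lists 18245 genes, and 10 of 10 were found. The labels give the heart ventricle epicardium of C57BL/6 mice as the tissue of every kind, and the mice were adult. CDC are cardiosphere-derived cells, mesenchymal cells that grow from explants and pass through floating spheres. CDC-EpiC is 1 epithelial clone, lifted with a cloning cylinder from CDC that had been held in 10 µM SB-431542 for 2 weeks. SB-431542 is a kinase inhibitor that blocks signalling by the type I receptors of TGF-beta. pEpiC are primary epicardial cells, which by the study's methods were put in culture after enzyme digestion of the dissected heart, and the inhibitor step is described for the making of the clones. Each kind is 1 labelled sample with 3 libraries, so n = 3 libraries throughout. Whether these are separate animals or cultures is unknown. No second clone and no picked but untreated cells stand beside the clone. Being a clone and having been kept in the inhibitor cannot be told apart here.

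Notch receptors are single-pass membrane proteins that are activated by ligands on a neighbouring cell. Ligand pulling exposes the receptor to ADAM proteases and then to gamma-secretase, and the freed intracellular part enters the nucleus, where it joins the DNA-binding protein RBPJ and a Mastermind coactivator. The usual first targets are the Hes and Hey genes, which encode basic helix-loop-helix repressors. In the heart the pathway is known for its roles in the epicardium, the endothelium and the mural cells of vessels.

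Library totals were 22008833 to 22756045 expected counts. Epicardial markers (8 genes) summed to 5760 to 6730 CPM (counts per 1e+06 counts) in CDC-EpiC, 642 to 683 CPM in CDC and 556 to 591 CPM in pEpiC, and all 8 reached 1 CPM in each kind. Upk3b, Lrrn4 and Upk1b made up most of the clone's sum, and the list did not move as one, since Tbx18 was 1.65-fold lower in the clone than in CDC, and Tcf21 and Aldh1a2 were 3.66-fold and 9.98-fold lower than in pEpiC. The macrophage list of 10 genes summed to 897 CPM in pEpiC library 1 and to 312 and 340 CPM in the other pEpiC libraries, against 22.5 to 61.0 CPM in CDC and CDC-EpiC. The endothelial list of 10 genes summed to 92.4 to 111 CPM in pEpiC, 47.0 to 62.2 CPM in CDC and 16.9 to 19.5 CPM in CDC-EpiC, with Flt1 as its most abundant gene. Of that list, Pecam1, Cdh5, Tie1, Emcn and Esam were under 1 CPM in every kind, while Tek (17.6 against 0.122 CPM), Vwf (2.15 against 0.457 CPM) and Kdr (1.47 against 0.563 CPM) were higher in pEpiC than in CDC. Egfl7 went the other way, at 2.05 CPM in pEpiC, 5.85 CPM in CDC and 7.38 CPM in CDC-EpiC. These are bulk samples, so fewer cells of a type and less RNA per cell cannot be told apart.

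Levels are given as CPM after TMM normalization, or as the counts themselves where a gene is low. Changes are fitted log2 values with their standard error (SE), with p-values from edgeR's quasi-likelihood test adjusted by Benjamini-Hochberg over all genes tested, and a gene is called at an adjusted p under 0.05. In CDC-EpiC against CDC, 7 of the 10 members had enough counts to be tested. Of these, 4 were lower (Notch1, Notch3, Jag1 and Hes1), 1 was higher (Dll1) and 2 were not called (Notch2 and Notch4). Among all 12976 genes tested there, 68.8% were called, 34.6% lower and 34.2% higher. In pEpiC against CDC, 7 of 10 members were higher (Notch2, Notch3, Notch4, Jag1, Hey1, Hey2 and Heyl), 2 were lower (Notch1 and Hes1) and Dll1 was not called. Of the 13526 genes tested in that comparison 78.3% were called, 39.8% higher and 38.5% lower. In CDC-EpiC against pEpiC, 9 of 10 members were lower and Dll1 was not called, where 81.9% of 13547 genes were called, 41.5% lower and 40.3% higher. The share of members called in either direction lay near that of all genes in each comparison. The balance of calls over all genes depended on the scale, since 50.8% of calls were higher in pEpiC than in CDC by the main normalization and 74.3% on TPM (transcript abundance per length, scaled to the same sum in each library), and 49.3% and 33.0% were higher in CDC-EpiC than in pEpiC. The 3 comparisons share libraries in pairs and are not separate evidence. Hey1, Hey2 and Heyl passed the low-count filter in both comparisons with pEpiC through the pEpiC libraries, where they were high, and Dll1 passed against CDC through CDC-EpiC, so these genes had to differ to be tested at all. Of the other pathway genes described below, some passed the filter in the same way, through the group in which they were high. They were Jag2 and Dlk2 in the comparisons with pEpiC, Nrarp wherever it was tested, and Dlk1 in CDC-EpiC against pEpiC. In CDC-EpiC against CDC, Jag2 and Dlk2 had enough counts in either kind.

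**Figure D1:**
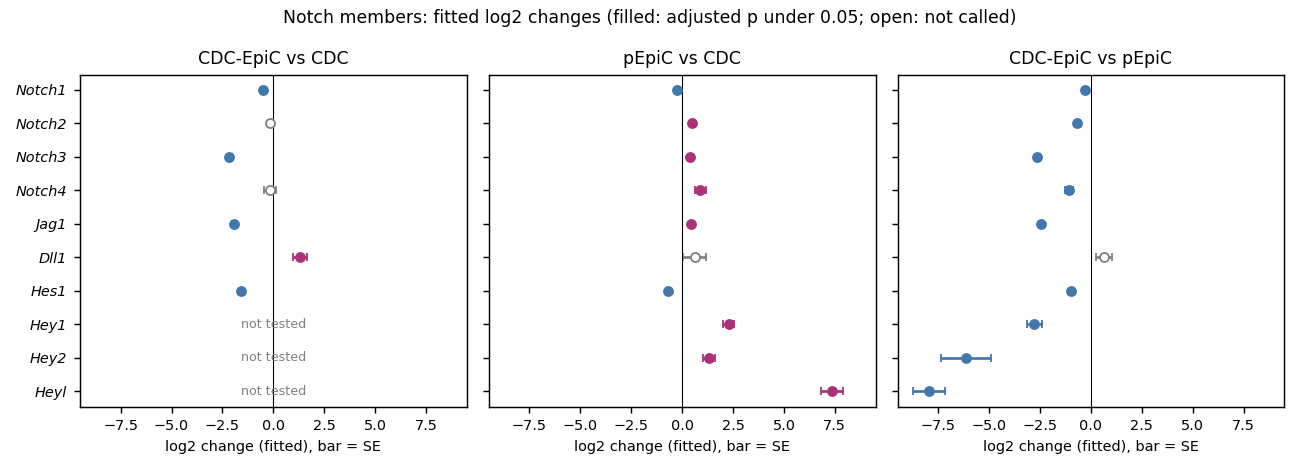
Fitted log2 change of each member in the 3 comparisons (x axis, log2; bars are the SE of the fit on 6 libraries), with filled points for an adjusted p under 0.05 and open points for genes not called. In CDC-EpiC against CDC the points of Notch3, Jag1 and Hes1 lie at -2.20, -1.95 and -1.59, and in both comparisons with pEpiC the point of Heyl lies farthest from 0.

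The promoter windows of the members were read first, since Hes and Hey genes are direct RBPJ targets. RefSeq windows on GRCm38.p6 were found for 7 of 10 members, and Hes1, Hey1 and Heyl had none. Each window was searched on both strands for TGGGAA, the core bound by RBPJ, and for CACGTG, an E-box that Hes and Hey proteins can bind. Of 32851 windows of 300 bases, 25.6% held TGGGAA and 7.15% held CACGTG. Hey2 was the one member whose window matched, with 2 copies of TGGGAA, and both lay within the longer CGTGGGAA, which was in 0.734% of windows and was added to the search after the Hey2 window had been read. The copies lay at bases -207 to -200, on the opposite strand, and -5 to 3, on the gene's strand, counted from the annotated start as base 1. The Hey2 window (chr10:30842774-30843033, minus strand, 72.0 percent G or C over 300 bases) is shown with these matches in capitals. The Notch3 window (chr17:32166881-32167140, minus strand, 70.0 percent G or C) is shown beside it as the receptor that differed most in the clone, and it held no match. Both run from 250 bases before to 10 bases after the RefSeq start, 5′ to 3′. For Notch3 the bases after that start were not found in a GENCODE transcript of the gene. Its shown window lies outside the gene's GENCODE position (chr17:32120820-32166852). A match describes letters and not a bound site.
Hey2: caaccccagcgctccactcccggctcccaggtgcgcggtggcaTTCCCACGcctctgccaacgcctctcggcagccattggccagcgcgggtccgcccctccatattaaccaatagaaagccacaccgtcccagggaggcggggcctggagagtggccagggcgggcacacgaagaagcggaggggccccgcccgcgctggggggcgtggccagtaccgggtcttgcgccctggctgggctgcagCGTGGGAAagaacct
Notch3: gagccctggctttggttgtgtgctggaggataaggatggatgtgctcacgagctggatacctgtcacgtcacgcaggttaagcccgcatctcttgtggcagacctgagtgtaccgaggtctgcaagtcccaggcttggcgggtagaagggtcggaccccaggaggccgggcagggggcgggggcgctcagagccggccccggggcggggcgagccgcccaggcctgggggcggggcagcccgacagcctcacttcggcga

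**Figure D2:**
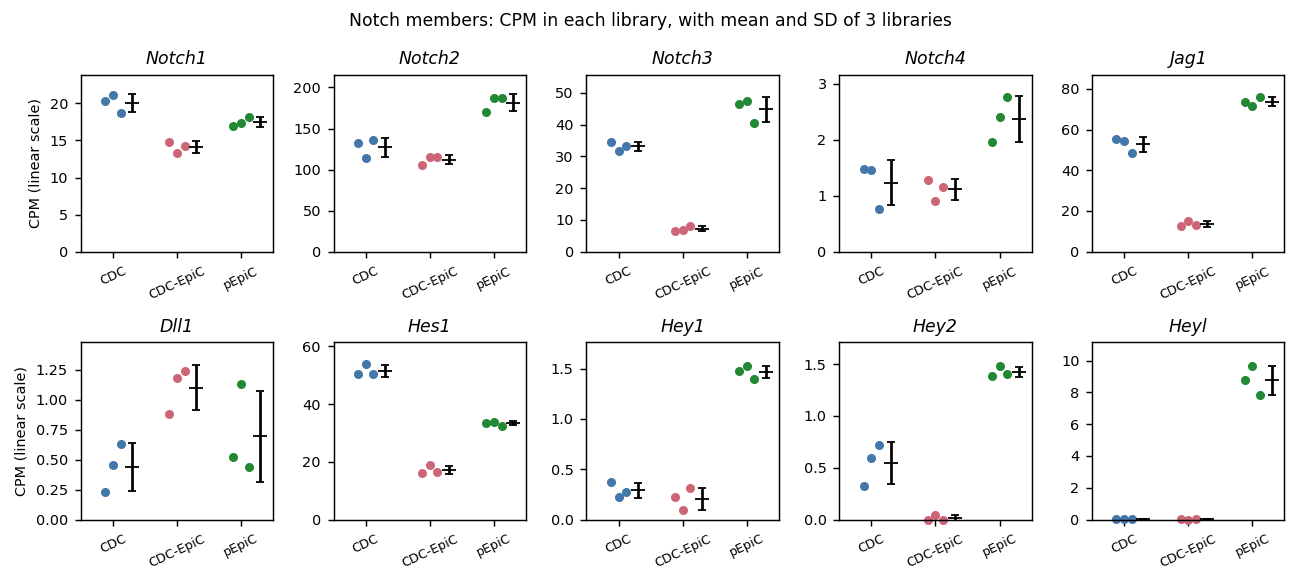
CPM of the 10 members in each of the 9 libraries (y axis, CPM on a linear scale from 0, with its own range in each panel), with the mean and SD of 3 libraries beside the points. Heyl stands at 7.84 to 9.63 CPM in pEpiC and at most 0.0461 CPM elsewhere, while Notch3 and Jag1 were lowest in CDC-EpiC.

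In the clone, Notch3 was the receptor that differed most from both other kinds. Notch3, which is best known in vascular smooth muscle cells and pericytes (gene ID 18131, chr17:32120820-32166852, minus strand, GRCm38), was at 34.6, 31.7 and 33.4 CPM in CDC, 6.63, 6.90 and 8.20 CPM in CDC-EpiC, and 46.4, 47.6 and 40.5 CPM in pEpiC. The 3 kinds did not overlap, and the clone was lowest. Notch3 was 4.60-fold lower in CDC-EpiC than in CDC (log2 change -2.20, SE 0.09, adjusted p = 3.07e-11) and 6.19-fold lower than in pEpiC (log2 change -2.63, SE 0.10, adjusted p = 4.93e-09). Against CDC, pEpiC was 1.31-fold higher (log2 change 0.39, SE 0.07, adjusted p = 0.000759), and this direction turned when transcript length entered the fit (log2 change -0.16, adjusted p = 0.0840). The pericyte list of 8 genes summed to 62.0 to 76.1 CPM in CDC-EpiC, 275 to 327 CPM in CDC and 1293 to 1353 CPM in pEpiC, with Pdgfrb, which fibroblasts also express, as its most abundant gene. Rgs5 and Higd1b were under 1 CPM in every kind. Des, Abcc9 and Cspg4 were higher in pEpiC (86.1, 4.36 and 3.08 CPM) than in CDC (1.96, 0.305 and 0.0759 CPM). Mcam went the other way, at 2.77 CPM in pEpiC and 3.68 CPM in CDC (adjusted p = 0.0396). Kcnj8 was at 0.247 CPM in pEpiC and 0.441 CPM in CDC, and was not tested between them. Against the list's sum, Kcnj8 was higher in the clone, 2.47-fold above CDC and 4.38-fold above pEpiC. The smooth muscle list of 8 genes summed to 865 to 1208 CPM in CDC-EpiC, 2147 to 2675 CPM in CDC and 1024 to 1041 CPM in pEpiC. Smtn, at 632 CPM, carried most of the clone's sum, and Tagln, Myh11, Actg2 and Lmod1 were 9.36-fold, 34.2-fold, 39.3-fold and 10.9-fold lower in the clone than in pEpiC. Acta2 and Cnn1 were lower by less, 1.56-fold and 1.76-fold. In pEpiC against CDC, Acta2 and Cnn1 were lower, by 3.69-fold and 3.51-fold. Tagln and Actg2 were higher there, by 1.19-fold and 2.78-fold, and Myh11, Lmod1 and Smtn were not called. Against CDC, the clone was lower in Acta2, Cnn1, Tagln, Lmod1, Actg2 and Myh11, by 5.58-fold to 27.3-fold. Smtn was 4.60-fold higher in the clone than in CDC. The part of these cell types in the Notch3 values was not tested.

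Notch2, a broadly expressed receptor (gene ID 18129, chr3:98013527-98150361, plus strand), was the most abundant of the receptors per length in each kind. It was at 132, 114 and 135 CPM in CDC, 106, 115 and 116 CPM in CDC-EpiC, and 170, 187 and 188 CPM in pEpiC. CDC and CDC-EpiC overlapped, and pEpiC lay above both. The clone's Notch2 was not called against CDC (log2 change -0.19, SE 0.08, adjusted p = 0.0551), and it sat close to the threshold, with an adjusted p of 0.0119 without CDC replicate 2. In pEpiC Notch2 was 1.39-fold higher than in CDC (log2 change 0.47, SE 0.08, adjusted p = 0.000233). Relative to pEpiC it was 1.62-fold lower in the clone (log2 change -0.70, SE 0.05, adjusted p = 1.50e-06). With transcript length in the fit these last values became -0.18 (adjusted p = 0.00922) and 0.0019 (adjusted p = 0.976), so the direction against pEpiC depends on how length is treated.

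Notch1, which acts in endothelial and many progenitor cells (gene ID 18128, chr2:26457903-26516663, minus strand), had small differences between kinds. Its levels were 20.3, 21.1 and 18.7 CPM in CDC, 14.8, 13.3 and 14.3 CPM in CDC-EpiC, and 16.9, 17.4 and 18.2 CPM in pEpiC. The kinds did not overlap on this scale. CDC-EpiC was 1.42-fold lower than CDC (log2 change -0.51, SE 0.08, adjusted p = 0.000126), a call that held in every alternative tried. The pEpiC value was 1.18-fold lower than CDC (log2 change -0.24, SE 0.07, adjusted p = 0.0161), but on the TPM scale it was higher, at 4.40 ± 0.184 TPM (SD) against 3.67 ± 0.0950 TPM, with a log2 change of 0.23 where the median of all genes was 0.46. Over the 17 alternatives this change ran from -0.86 to 0.23, with the lower end from the fit with transcript length (adjusted p = 2.15e-05), and the call was lost in 5 that kept the direction, among them the fit without CDC replicate 2 (log2 change -0.20, adjusted p = 0.0530). The clone was 1.24-fold lower than pEpiC (log2 change -0.31, SE 0.06, adjusted p = 0.00408), which turned to 0.34 (adjusted p = 0.00145) with length in the fit.

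Notch4, a receptor best known in endothelium (gene ID 18132, chr17:34564268-34588503, plus strand), was low. It had 32, 32 and 17 counts in CDC, 29, 20 and 26 counts in CDC-EpiC, and 45, 55 and 63 counts in pEpiC. CDC and CDC-EpiC overlapped and were not called apart (log2 change -0.15, SE 0.29, adjusted p = 0.656), and pEpiC lay above both. pEpiC was 1.86-fold higher than CDC (log2 change 0.89, SE 0.27, adjusted p = 0.0118) and the clone 2.12-fold lower than pEpiC (log2 change -1.08, SE 0.21, adjusted p = 0.00125). Without pEpiC replicate 3 the former was no longer called (log2 change 0.77, adjusted p = 0.0530). The sum of the endothelial list was also higher in pEpiC, though not all of its genes were, as given above. That sum was lower in the clone (16.9 to 19.5 CPM) than in CDC (47.0 to 62.2 CPM), where Notch4 was not called. The part of that list in the Notch4 values was not tested.

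Taking the 4 receptors per length, their summed TPM was 32.4 ± 2.86 in CDC, 24.2 ± 1.42 in CDC-EpiC and 60.0 ± 3.22 in pEpiC (SD). Notch2 made up 65.1% ± 2.27 of that sum in CDC, 80.6% ± 1.26 in CDC-EpiC and 68.8% ± 1.77 in pEpiC. Notch3 made up 22.5% ± 0.608 in CDC and 22.4% ± 2.13 in pEpiC, but 6.87% ± 0.526 in CDC-EpiC. The clone stood apart from both other kinds in the balance of Notch2 and Notch3, with no overlap between its libraries and theirs. Notch1 held 11.4% ± 1.34, 11.3% ± 0.962 and 7.34% ± 0.271 in CDC, CDC-EpiC and pEpiC, and Notch4 at most 1.69% in any library. These sums and shares were not tested. The median of all genes on TPM was also higher in pEpiC than in CDC, as given for Notch1. With transcript length in the fit, Notch1, Notch2 and Notch3 had log2 changes of -0.86, -0.18 and -0.16 in pEpiC against CDC.

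**Figure D3:**
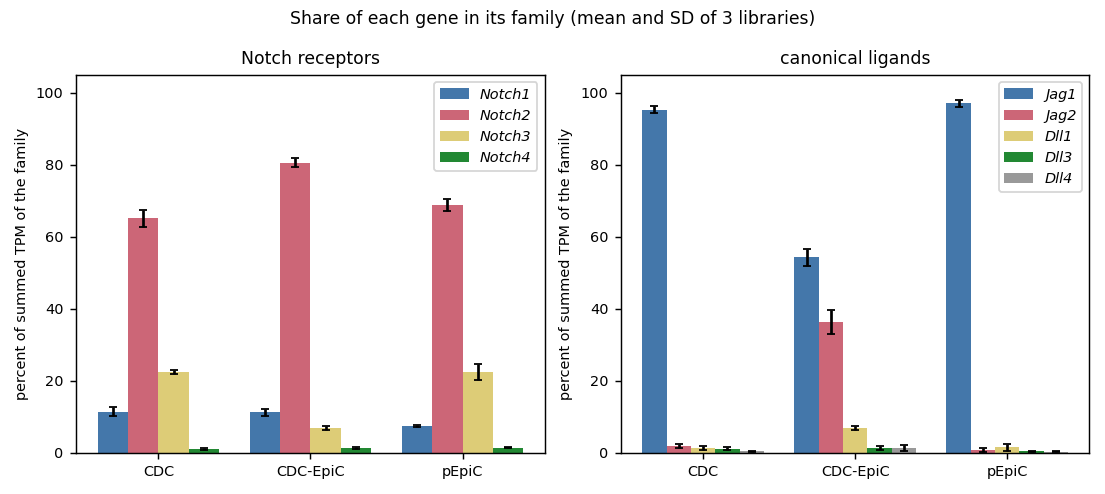
Share of each gene in the summed TPM of its family (y axis, percent) for the 4 receptors and the 5 canonical ligands, as mean and SD of 3 libraries in CDC, CDC-EpiC and pEpiC. The Notch3 bar falls from 22.5% in CDC to 6.87% in CDC-EpiC, and Jag2 reaches 36.3% of the ligand sum in CDC-EpiC.

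Jag1, a transmembrane ligand that activates Notch receptors on neighbouring cells (gene ID 16449, chr2:137081456-137116644, minus strand), followed the order of Notch3. Its levels were 55.3, 54.5 and 48.5 CPM in CDC, 12.5, 15.3 and 13.3 CPM in CDC-EpiC, and 73.5, 71.7 and 75.9 CPM in pEpiC. The 3 kinds were separate, again with the clone lowest. CDC-EpiC was 3.86-fold lower than CDC (log2 change -1.95, SE 0.09, adjusted p = 6.96e-11) and 5.39-fold lower than pEpiC (log2 change -2.43, SE 0.07, adjusted p = 1.13e-09). Across the alternatives the change against CDC ran from -2.05 to -1.54 and that against pEpiC from -2.68 to -2.04. The 1.35-fold higher level of pEpiC against CDC (log2 change 0.44, SE 0.06, adjusted p = 0.000158) was not called with length in the fit (log2 change 0.04, adjusted p = 0.695).

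Dll1, a Delta-type ligand (gene ID 13388, chr17:15367354-15376872, minus strand), was low in each kind and was the one member higher in the clone. It had 5, 10 and 14 counts in CDC, 20, 26 and 28 counts in CDC-EpiC, and 12, 26 and 10 counts in pEpiC. The clone lay above CDC without overlap, and pEpiC overlapped both. Dll1 was 2.47-fold higher in CDC-EpiC than in CDC (log2 change 1.31, SE 0.35, adjusted p = 0.00336). It was not called in pEpiC against CDC (log2 change 0.61, SE 0.56, adjusted p = 0.263) or in the clone against pEpiC (log2 change 0.65, SE 0.40, adjusted p = 0.120). The last difference was called without pEpiC replicate 2, the library with 26 counts (log2 change 1.18, adjusted p = 0.00915).

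Among the canonical ligands tested, Jag2, which is no member but the paralog of Jag1, was the one with the largest rise in the clone. Jag2 had 22, 14 and 13 counts in CDC, 133, 185 and 189 in CDC-EpiC, and 18, 7 and 4 in pEpiC. The clone's libraries were all above those of the other kinds, and CDC and pEpiC overlapped. It was 10.0-fold higher in CDC-EpiC than in CDC (log2 change 3.33, SE 0.27, adjusted p = 5.61e-09) and 17.7-fold higher than in pEpiC (log2 change 4.14, SE 0.45, adjusted p = 2.03e-06). Per length, Jag1 was still the leading canonical ligand of the clone, with 4.48 ± 0.400 TPM against 3.02 ± 0.546 TPM for Jag2. Jag1 held 95.3% ± 1.06 of the summed TPM of the 5 canonical ligands in CDC and 97.0% ± 0.980 in pEpiC, and 54.2% ± 2.43 in CDC-EpiC, where Jag2 held 36.3% ± 3.27 and Dll1 6.86% ± 0.486. The sum itself was 17.1 ± 0.425 TPM in CDC, 8.29 ± 0.943 TPM in CDC-EpiC and 32.2 ± 0.538 TPM in pEpiC. On TPM the median of all genes was also higher in pEpiC than in CDC. Jag1 had a log2 change of 0.04 in that comparison with transcript length in the fit (adjusted p = 0.695). Dll3 and Dll4 had at most 7 counts in any library and were not tested.

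Of the targets, Hes1 was the one with a substantial level in every kind. Hes1 encodes a repressor that also acts on its own promoter (gene ID 15205, chr16:30064384-30067796, plus strand). It was at 50.4, 53.9 and 50.3 CPM in CDC, 16.2, 18.8 and 16.6 CPM in CDC-EpiC, and 33.5, 33.9 and 32.6 CPM in pEpiC. The order differed from that of Notch3 and Jag1, with CDC highest, pEpiC between and the clone lowest, and no overlap. Hes1 was 3.01-fold lower in CDC-EpiC than in CDC (log2 change -1.59, SE 0.08, adjusted p = 1.92e-10). In pEpiC it was 1.60-fold lower than in CDC (log2 change -0.67, SE 0.05, adjusted p = 2.93e-06), and the size of this change ran from -0.70 to -0.18 over the alternatives. The clone was 1.94-fold lower than pEpiC (log2 change -0.96, SE 0.06, adjusted p = 5.83e-07).

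Heyl, a Hey-family repressor known in vascular smooth muscle (gene ID 56198, chr4:123233556-123249875, plus strand), was detected at more than single counts in pEpiC alone. It had 203, 221 and 179 counts in the pEpiC libraries. CDC had 1 count in each library, and CDC-EpiC had 1, 0 and 1. With so few counts the ratio carries a wide counting interval. Heyl was 192-fold higher in pEpiC than in CDC (95% interval 65.4 to 934, exact conditional binomial, counting error only; adjusted p = 5.50e-09) and 294-fold higher than in CDC-EpiC (95% interval 81.1 to 2436; adjusted p = 9.42e-09). CDC and CDC-EpiC were both at the floor of 3 counts or under, and no fold is given between them. The sums of the pericyte and fibroblast lists were also highest in pEpiC, the latter at 46083 to 50964 CPM against 12021 to 21120 CPM in the other kinds. Not every gene of the pericyte list followed its sum, as given above. Of the fibroblast list, Dcn was not called between the clone (1839 CPM) and pEpiC (1704 CPM), while the other genes were highest in pEpiC. The part of these lists in the Heyl values was not tested.

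Hey1, a Hey-family repressor that responds to Notch and BMP signals (gene ID 15213, chr3:8663359-8667256, minus strand), was low and was highest in pEpiC too. It had 8, 5 and 6 counts in CDC, 5, 2 and 7 counts in CDC-EpiC, and 34, 35 and 32 counts in pEpiC. CDC and the clone overlapped and were too low to be tested, and the pEpiC libraries lay above both. pEpiC was 4.85-fold higher than CDC (log2 change 2.28, SE 0.29, adjusted p = 4.20e-05) and the clone was 6.90-fold lower than pEpiC (log2 change -2.79, SE 0.37, adjusted p = 3.48e-05).

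Hey2, known for its roles in ventricular muscle and arteries (gene ID 15214, chr10:30832359-30842801, minus strand), was at or near 0 in the clone's libraries. It had 7, 13 and 16 counts in CDC, 0, 1 and 0 in CDC-EpiC, and 32, 34 and 32 in pEpiC. The 3 kinds did not overlap. Hey2 was 2.51-fold higher in pEpiC than in CDC (log2 change 1.33, SE 0.28, adjusted p = 0.00222). The clone was 95.7-fold lower than pEpiC, with a counting interval of 16.8 to 3816 (adjusted p = 2.66e-06). Against CDC it was too low to pass the filter, and the ratio of counts was 36.8-fold lower, with a counting interval of 6.19 to 1492. With no filter on low counts that difference had an adjusted p of 0.000158. Hey2 is the member whose promoter window, printed above, held the RBPJ core letters.

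Per length, the 3 Hey genes summed to 0.643 ± 0.127 TPM in CDC, 0.213 ± 0.0862 TPM in CDC-EpiC and 7.61 ± 0.666 TPM in pEpiC. Heyl made up 60.9% ± 1.59 of the sum in pEpiC, Hey1 21.2% ± 0.718 and Hey2 17.9% ± 0.940. Hes1 stood at 63.7 ± 1.87 TPM in CDC, 22.3 ± 1.42 TPM in CDC-EpiC and 56.4 ± 1.68 TPM in pEpiC, above the summed Hey genes in every kind. The Hey genes and Hes1 differed in order, as pEpiC was highest for the former and CDC for the latter. Of the other targets on the list, Hes5 had at most 1 count in a library and Hes7 at most 14, and neither was tested. Nrarp, which encodes an inhibitor of the Notch nuclear complex, had 10, 16 and 8 counts in CDC, 15, 11 and 21 in CDC-EpiC, and 2, 0 and 6 in pEpiC, and was higher in the clone than in pEpiC (log2 change 2.53, SE 0.76, adjusted p = 0.00442). Against CDC the clone's Nrarp was not called (log2 change 0.43, SE 0.37, adjusted p = 0.311).

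The members differ in transcript length, and in both comparisons with pEpiC the changes of all genes went with length. The slope was 0.45 on the log2 scale per doubling of effective length in pEpiC against CDC, -0.44 in CDC-EpiC against pEpiC, and 0.02 in CDC-EpiC against CDC. Effective lengths were 10677 bases for Notch2, 9650 for Notch1, 8088 for Notch3 and 5691 for Jag1, against a median of 2963 in pEpiC against CDC, while Hes1 had 1432 bases. A fit with a length offset changed little in CDC-EpiC against CDC, the comparison with the flattest slope. In pEpiC against CDC it ended the higher calls of Notch2, Notch3 and Jag1 and enlarged the lower value of Notch1. Of the 8 members fitted, 3 were then higher (Hey1, Hey2 and Heyl), 3 lower (Notch1, Notch2 and Hes1) and 2 not called. Of all genes fitted, 39.5% were higher and 36.1% lower. Hey1, Hey2 and Heyl passed the filter only through the pEpiC libraries, so their 3 higher calls cannot be set against that share. In CDC-EpiC against pEpiC the length offset turned Notch1 to higher and ended the call of Notch2. The lower Notch3 (log2 change -2.07) and Jag1 (log2 change -2.04) remained called there. Notch4 and Dll1 were under 0.5 FPKM in each library with at least 10 counts, the minimum set for a length, and could not be fitted this way.

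**Figure D4:**
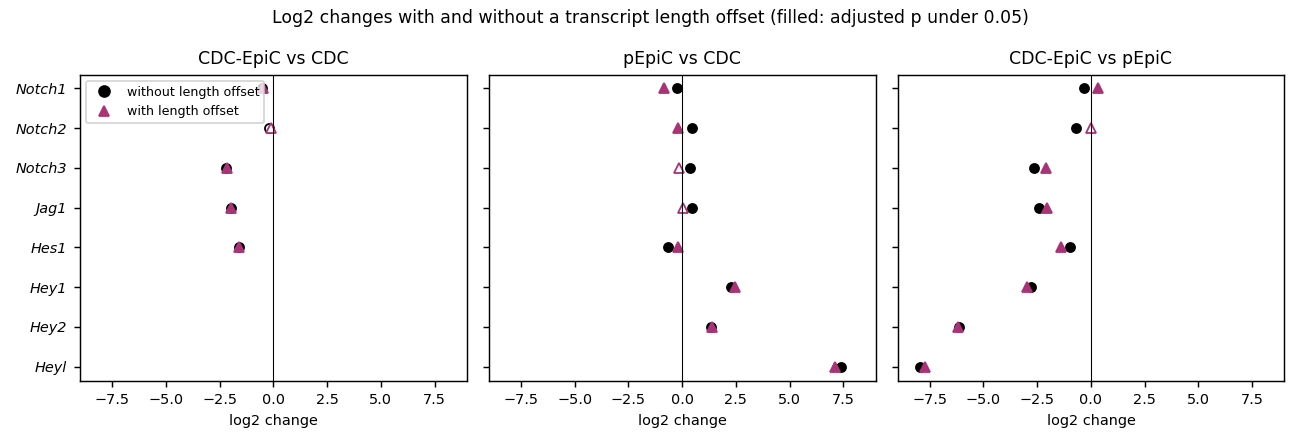
Log2 change of the 8 members with an effective length, without (circles) and with (triangles) a transcript length offset, in the 3 comparisons, with filled marks for an adjusted p under 0.05. Notch2 in CDC-EpiC against pEpiC moves from -0.70 to 0.0019, while circles and triangles nearly coincide in CDC-EpiC against CDC.

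The rest of the pathway was read from a list of 46 further genes in 9 of the 10 roles of the list. In CDC-EpiC against CDC, 39 were tested, 20 were higher, 13 lower and 6 not called, with a median log2 change of 0.26 beside 0.00 for all genes and the background of 34.2% higher and 34.6% lower. In pEpiC against CDC, 24 of 38 tested were higher, 9 lower and 5 not called (median log2 change 0.43 beside 0.02, background 39.8% higher and 38.5% lower). In CDC-EpiC against pEpiC, 15 of 39 were higher, 20 lower and 4 not called (median log2 change -0.13 beside -0.02, background 40.3% higher and 41.5% lower). The list's genes have a median effective length of 4162 bases, against 2963 for the genes behind the slope in pEpiC against CDC. The length offset was applied to this list after its counts had been seen. With it, 21 of 38 were higher and 11 lower in pEpiC against CDC (median 0.22 beside 0.04, background 39.5% higher and 36.1% lower). In CDC-EpiC against pEpiC the split became 14 higher and 14 lower of 38 (median 0.03 beside -0.04, background 38.8% higher and 42.3% lower).

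Receptor cleavage genes encode the proteases that release the intracellular part of Notch. Of 10 tested, 5 were higher and 3 lower in CDC-EpiC than in CDC, where 34.2% of all genes were higher. Psen2, a catalytic subunit of gamma-secretase, was at 32.5, 30.4 and 28.7 CPM in CDC, 108, 118 and 113 CPM in CDC-EpiC, and 48.7, 45.0 and 45.6 CPM in pEpiC. It was 3.69-fold higher in the clone than in CDC (log2 change 1.88, SE 0.07, adjusted p = 1.47e-11) and 2.43-fold higher than in pEpiC (log2 change 1.28, SE 0.05, adjusted p = 1.06e-08). Aph1c, a further subunit whose reads may be shared with the near-identical Aph1b, was 2.23-fold higher in CDC-EpiC than in CDC (log2 change 1.16, SE 0.18, adjusted p = 3.81e-05). The protease gene Adam17 was 1.60-fold higher (log2 change 0.68, SE 0.11, adjusted p = 1.40e-05).

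Of the genes of receptor endocytosis and turnover, 5 of 6 tested were higher in the clone than in CDC, beside 34.2% of all genes. In the clone against pEpiC 5 of 6 were lower, beside 41.5% of all genes, or 4 of 6 with the length offset, beside 42.3% of all genes fitted. Dtx2, which encodes a Deltex ubiquitin ligase, went the other way in the latter comparison. It was at 28.8, 29.6 and 26.0 CPM in CDC, 76.1, 82.1 and 86.7 CPM in CDC-EpiC, and 23.2, 20.9 and 24.0 CPM in pEpiC. The clone was 2.89-fold above CDC (log2 change 1.53, SE 0.08, adjusted p = 2.63e-10) and 3.59-fold above pEpiC (log2 change 1.84, SE 0.07, adjusted p = 5.34e-09). Numb, an adaptor that inhibits Notch, was 1.77-fold higher in CDC-EpiC than in CDC (log2 change 0.83, SE 0.07, adjusted p = 1.98e-07). Itch and Dtx4, both ubiquitin ligase genes, were 2.10-fold and 2.42-fold higher in pEpiC than in CDC (adjusted p = 2.71e-07 and 5.26e-07). With the length offset their log2 changes were smaller, at 0.71 and 0.91, and still called.

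Ligand endocytosis genes encode the ubiquitin ligases that let a ligand pull on its receptor. Neurl1b was at 12.3, 11.7 and 10.2 CPM in CDC, 2.83, 2.36 and 3.15 CPM in CDC-EpiC, and 4.34, 4.10 and 5.12 CPM in pEpiC. The clone was lowest, 4.11-fold below CDC (log2 change -2.04, SE 0.14, adjusted p = 6.88e-09), and pEpiC was 2.60-fold below CDC (log2 change -1.38, SE 0.12, adjusted p = 4.04e-06). Mib1, the ligase most needed for ligand activity, was 2.46-fold higher in pEpiC than in CDC (log2 change 1.30, SE 0.09, adjusted p = 3.56e-07) and 3.04-fold lower in the clone than in pEpiC (log2 change -1.60, SE 0.07, adjusted p = 1.86e-08). With the length offset these Mib1 values were 0.91 and -1.22, both still called. Neurl1a was 2.2-fold lower in pEpiC than in CDC (adjusted p = 0.000221) and 2.57-fold higher in the clone than in pEpiC (adjusted p = 0.000111).

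Receptor glycosylation genes set which ligands a receptor answers to. Lfng, a Fringe enzyme that favours Delta over Jagged ligands, had 106, 114 and 103 counts in CDC, 223, 252 and 292 in CDC-EpiC, and 230, 140 and 135 in pEpiC. Lfng was 2.31-fold higher in CDC-EpiC than in CDC (log2 change 1.21, SE 0.13, adjusted p = 8.92e-07). The high pEpiC library is library 1, in which the macrophage list was also highest, and whether the 2 go together was not tested. The other glycosylation genes tested, Pofut1, Poglut1 and Rfng, were lower in the clone than in CDC by 1.14-fold to 1.31-fold (adjusted p = 0.0279, 0.000714 and 0.00801).

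Non-canonical ligands lack the domain by which canonical ligands activate the receptor. Dlk2 had 135, 131 and 98 counts in CDC, 35, 37 and 41 in CDC-EpiC, and 3, 1 and 1 in pEpiC. It was 3.30-fold lower in the clone than in CDC (log2 change -1.72, SE 0.19, adjusted p = 8.53e-07), and pEpiC was lower still (log2 change against CDC -6.19, SE 0.56, adjusted p = 1.05e-07). The clone was above pEpiC (log2 change 4.43, SE 0.53, adjusted p = 2.14e-06). Dlk1 had 43, 44 and 7 counts in CDC, 18, 20 and 14 in CDC-EpiC, and 9, 3 and 11 in pEpiC, so CDC library 3 lay apart from the other CDC libraries and within the range of pEpiC. The cardiomyocyte list of 10 genes was also lower in that library, at 9.69 CPM against 29.7 and 29.8 CPM. Across kinds it did not follow Dlk1, at 9.97 to 12.7 CPM in CDC-EpiC and 138 to 155 CPM in pEpiC. Tnnt2, at 145 CPM, carried most of the pEpiC sum. The part of this list in the Dlk1 value was not tested. Dlk1 was called lower in pEpiC than in CDC (log2 change -2.13, SE 1.11, adjusted p = 0.0125) although the groups overlapped, and higher in the clone than in pEpiC (log2 change 1.2, SE 0.43, adjusted p = 0.0221), a call that was lost with the length offset (adjusted p = 0.110).

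In the nucleus, Rbpj, the DNA-binding partner of the freed receptor, was at 92.2, 89.5 and 109 CPM in CDC, 74.7, 82.1 and 81.2 CPM in CDC-EpiC, and 167, 155 and 149 CPM in pEpiC. It was 1.23-fold lower in the clone than in CDC (log2 change -0.29, SE 0.09, adjusted p = 0.00670) and 1.57-fold higher in pEpiC than in CDC (log2 change 0.65, SE 0.09, adjusted p = 3.14e-05). Of the 5 nuclear complex genes, 5 were called higher in pEpiC against CDC, beside 39.8% of all genes. The coactivator gene Maml3 moved most (log2 change 1.29, SE 0.11, adjusted p = 4.07e-06). In the clone against pEpiC 4 were lower, beside 41.5% of all genes. These genes have a median effective length of 5641 bases. With the length offset, Rbpj and Maml3 were at 0.37 and 0.82 in pEpiC against CDC, and Maml2 was no longer called (log2 change 0.15, adjusted p = 0.103). With it 3 of 5 were lower in the clone than in pEpiC, beside 42.3% of all genes fitted. Of the 6 corepressor genes, 4 were higher and 2 lower in the clone than in CDC, beside 34.2% and 34.6% of all genes. Tle1 was 3.29-fold lower in the clone than in pEpiC (log2 change -1.72, SE 0.06, adjusted p = 1.36e-08) and 2.30-fold higher in pEpiC than in CDC (log2 change 1.2, SE 0.06, adjusted p = 1.37e-07). Tle4 was 2.07-fold higher in CDC-EpiC than in CDC (log2 change 1.05, SE 0.10, adjusted p = 9.29e-07), and Tle2 2.39-fold higher in pEpiC than in CDC (adjusted p = 8.74e-06).

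**Figure D5:**
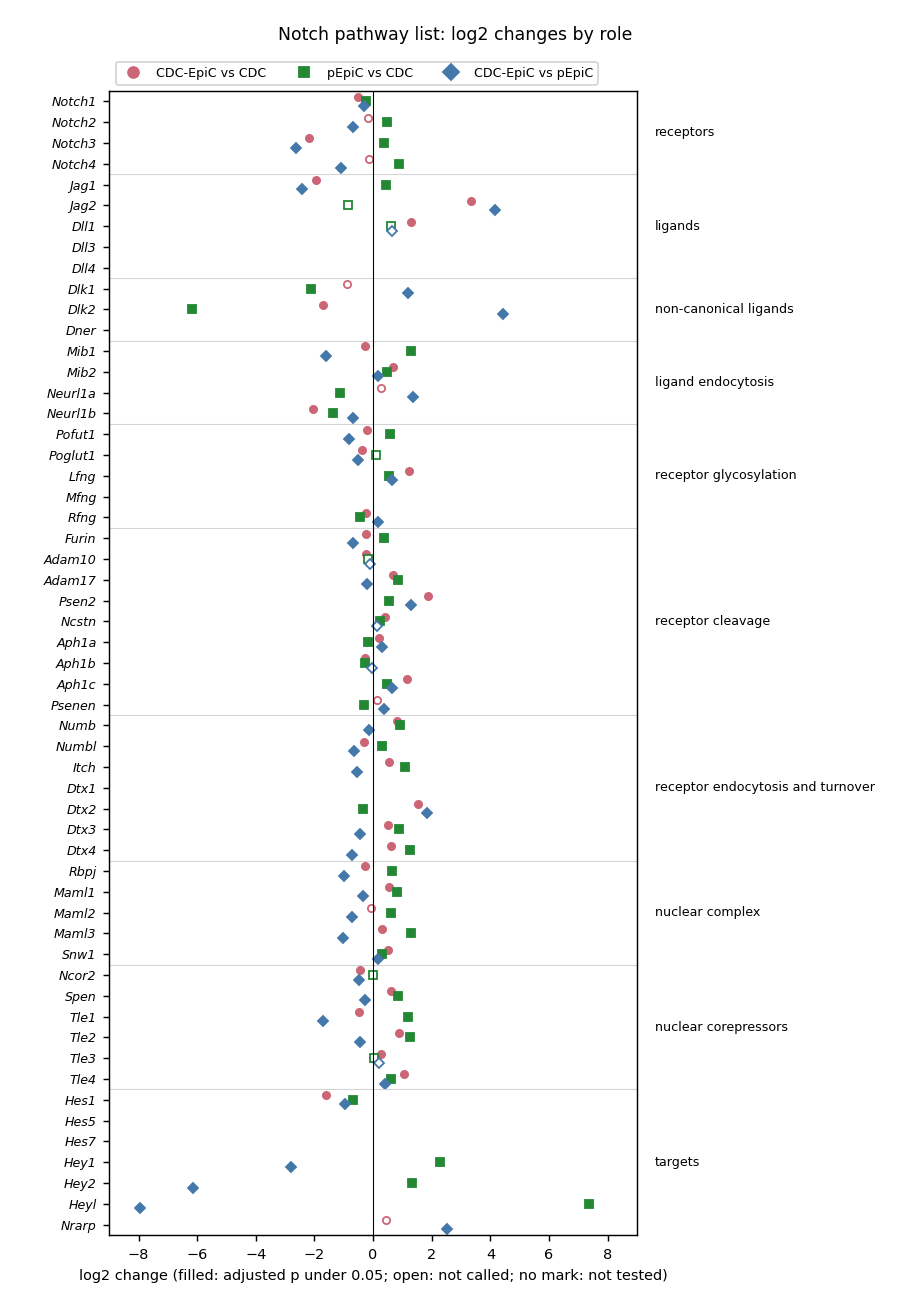
Log2 changes (x axis) of genes of the pathway list by role, for the 3 comparisons, with filled marks for an adjusted p under 0.05, open marks for genes not called and no mark for genes not tested. The receptor cleavage and nuclear genes cluster near 0 next to Jag1, Jag2, Dlk2 and the Hey genes, whose marks reach from -7.96 to 7.38.

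The genes most like the members with the widest range were sought among 13775 genes by the Euclidean distance of centred log2(CPM + 1) over the 9 libraries. Nearest to Heyl were Aspn, which encodes the matrix proteoglycan asporin (distance 0.201; 8.97 ± 1.70 CPM in pEpiC, 0.0151 in CDC and 0 in CDC-EpiC), and Chodl, which encodes the lectin chondrolectin (distance 0.235; 9.03 ± 0.897 CPM in pEpiC and 0 in the others). Nearest to Notch3 were Myh11, a smooth muscle myosin heavy chain (distance 0.245; 3.79 ± 0.333 CPM in CDC, 0.134 ± 0.0887 in CDC-EpiC and 4.75 ± 0.364 in pEpiC), and Dram1, an autophagy regulator (distance 0.395). Nearest to Jag1 were Vegfa, the vascular growth factor (distance 0.166; 179 ± 5.64 CPM in CDC, 49.8 ± 2.38 in CDC-EpiC and 253 ± 12.2 in pEpiC), and Rin3 (distance 0.307). Distances describe the shape of the profile over 3 kinds and carry no test.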

How the data were processed

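RNA of CDC, CDC-EpiC and pEpiC was sequenced on a BGISEQ-500, with poly(A) selection and random hexamer priming. The authors deposited expected counts per gene and library, of which 30.3% were not whole, together with FPKM and TPM scaled by length. Their 9 columns of means were not used. The submitters' processing notes name HISAT2 2.0.4, Bowtie2 2.2.5, RSEM 1.2.12, DESeq2 1.4.5 and build mm10 without roles. The annotation and the use of strand are not given in the sources used here, so counts of paralogs and of overlapping genes are uncertain. The table has 3 library columns for each labelled sample, and the extraction protocol speaks of 3 separate samples. Whether these are separate animals or cultures is unknown, so p-values measure the spread between these libraries, which may be technical.

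Expected counts were rounded and fitted in edgeR 4.0.16 (R 4.3.3) on the 6 libraries of each pair of kinds, after filterByExpr (minimum count 10, minimum total count 15) and TMM normalization, with glmQLFit, glmQLFTest and Benjamini-Hochberg adjustment at 0.05, and the steps were tested on simulated data. CPM were scaled over the 9 libraries. Effective length was the expected count divided by FPKM and by the library total in units of 1e+06 counts, and the length offset was a loess fit of span 0.3. Where a group held 1 to 3 counts in total, the ratio of counts was given with an exact conditional binomial 95% interval, which covers counting error only. Libraries of a kind differed beyond sampling noise (chi-square over its degrees of freedom 4.72 to 21.8). Library numbers did not pair the kinds, since correlations of deviations were -0.104 to 0.171 over 10692 genes.

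The genes named are the 10 members and, of the pathway list, those called with at least 2-fold change, plus at least 1 gene per role and the 2 nearest genes of the 3 members with the widest range. The members and lists were chosen with earlier results of these data known. Alternatives were DESeq2 1.42.0, RLE, library size alone, other filters, a fit of all 9 libraries, limma 3.58.1 on log2(TPM + 0.5), log2(FPKM + 1) and log2(FPKM + 0.1), the length offset, a replicate block and leaving out each library. Sequences were read and figures drawn in Python 3.11.15 (pandas 2.3.3, NumPy 2.4.6, matplotlib 3.10.9). Gene positions are from GENCODE on GRCm38. Of the pathway list, 1 gene is included in the counts and is not reported by name here. Applying the transcript length offset to the lists of pathway genes was chosen after seeing the data.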

Additional observations from a re-analysis of the deposited data

How the results depend on the processing

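Of the members' changes under the alternatives, 413 kept their direction and their side of the threshold, 5 turned, 5 gained a call and 7 lost one. The 51 counts of genes and 51 counts of members past the threshold stayed within 1.5 times. Leaving out 1 library gave 8248 to 9046 genes and 5 to 6 members in CDC-EpiC against CDC, 10073 to 10838 genes and 8 to 9 members in pEpiC against CDC, and 10760 to 11076 genes and 9 to 10 members in CDC-EpiC against pEpiC. With the length offset Notch2 and Notch3 in pEpiC against CDC turned to -0.18 and -0.16, and Notch1 and Notch2 in CDC-EpiC against pEpiC to 0.34 and 0.0019. On log2(TPM + 0.5) Notch1 in pEpiC against CDC turned to 0.23, where the median of all genes was 0.46 in that comparison and -0.36 in CDC-EpiC against pEpiC. Library size alone moved the median in pEpiC against CDC to 0.13 and ended the Notch1 call (log2 change -0.13, adjusted p = 0.151). Notch2 in CDC-EpiC against CDC was called by DESeq2 (adjusted p = 0.0468), with at least 10 counts in every library (0.0429) and in the fit of all 9 libraries (0.0496). The cause of these changes was not tested. The library number as a replicate block gave 8831, 10604 and 11096 genes and changed no member's call. Low counts limit the precision of Notch4, Dll1, Hey1 and Hey2.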
